A study of Mus musculus with 46 samples.

Results

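The cytosolic ribosomal protein genes code for the proteins of the ribosome that translates messenger RNA from the nucleus. They were examined in mice that had inhaled ethanol vapor, in a part of the extended amygdala, the stria terminalis bed nucleus (BNST). Members were every probeset of the array whose single gene symbol was Rpl or Rps followed by a digit, or Rplp0, Rplp1, Rplp2 or Rpsa. Symbols of the S6 kinases and of annotated pseudogenes were left out. This gave 106 of 45037 probesets, which stood for 50 of 18193 genes. By name, 20 genes belonged to the large subunit, 21 to the small subunit and 2 to the acidic stalk (Rplp0, Rplp2). A further 6 were paralogs (Rpl3l, Rpl7l1, Rpl22l1, Rpl39l, Rps4l, Rps27l), and 1, Rps19bp1, codes for a binding partner of Rps19 and not for a ribosomal protein. RefSeq lists Rps4l as a transcribed pseudogene, although its symbol does not say so.

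Total RNA of this region was measured in 46 mice, all adult males of the strain C57BL/6J, with one mouse per Affymetrix array. The CIE mice (chronic intermittent ethanol) were injected with ethanol at 1.6 g/kg and the alcohol dehydrogenase inhibitor pyrazole at 1 mmol/kg before each cycle. They then spent 16 h a day for 4 days in vapor chambers at 10 to 13 mg ethanol per l of air, followed by 7 days of abstinence, for 4 cycles. The Ctrl mice had saline with the same dose of pyrazole and breathed air. Tissue was taken at 0 h, 8 h, 72 h and 7 days (7 d) after the last session, from 6, 6, 6 and 4 CIE mice and from 6 Ctrl mice at each time. The inhibitor was thus common to both groups, and all animals were males of 1 inbred strain.

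Eukaryotic ribosomes are assembled in the nucleolus from ribosomal RNA and one copy of most ribosomal proteins. The messenger RNAs of these proteins are among the most abundant of the cell, and most begin with a run of pyrimidines, the 5′ terminal oligopyrimidine or TOP motif. Their translation is raised by the mTOR kinase, so protein output can change while the RNA level does not. In neurons they are also found in axons and dendrites. A microarray measures the RNA only.

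A TOP start was more frequent at the annotated starts of the members than in all genes, but most members did not show one at the exact annotated base. RefSeq promoter windows on build GRCm38.p6, from 250 bases before to 50 bases after each start, matched 44 of the 50 genes (52 windows). Rpl7, Rpl8, Rps4l, Rps14, Rps20 and Rps29 were not matched. A C at the start followed by at least 4 C or T occurred in 8 of 52 member windows (15.4%), against 2.5% of 32851 windows of all genes and 0.0% of 75 windows of mitochondrial ribosomal protein genes. A run of at least 8 C or T within 10 bases of the start occurred in 38.5% of member windows, 13.7% of all windows and 12.0% of windows of mitochondrial ribosomal protein genes. The sequences below belong to members whose values are described later, 3 with a TOP start (Rps27, Rpl14, Rps6) and 3 without one (Rps27l, Rpl12, Rpl7l1). A TOP start was counted only with a C at the exact annotated base, and in Rpl12 a C or T run begins at the next base. How far the counts depend on the accuracy of the annotated starts was not tested. Each sequence shows 30 bases before and 15 bases after the start, and capitals mark the longest C or T run near it.
Rps27: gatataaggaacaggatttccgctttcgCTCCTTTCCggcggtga
Rpl14: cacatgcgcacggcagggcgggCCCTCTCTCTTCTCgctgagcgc
Rps6: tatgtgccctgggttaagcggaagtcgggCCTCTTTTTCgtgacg
Rps27l: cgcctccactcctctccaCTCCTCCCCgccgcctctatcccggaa
Rpl12: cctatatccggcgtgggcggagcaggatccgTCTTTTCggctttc
Rpl7l1: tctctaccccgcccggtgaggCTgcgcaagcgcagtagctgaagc

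These windows lie at chr3:90213634-90213678 on the minus strand (Rps27), chr9:120571487-120571531 on the plus strand (Rpl14) and chr4:86857353-86857397 on the minus strand (Rps6). Those of Rps27l, at chr9:66946056-66946100, and Rpl12, at chr2:32961682-32961726, are on the plus strand, and that of Rpl7l1, at chr17:46782642-46782686, is on the minus strand. Rps27l has a further annotated start. In the full windows, CCGGAA, the core bound by ETS-family factors, was found on either strand in 53.8% of member windows, against 14.9% of all windows. The GC box core GGGCGG was found in 53.8% against 35.7%, CTTTCC in 46.2% against 26.6%, and AAGATGG, a core bound by YY1, in 15.4% against 6.3%. Windows of mitochondrial ribosomal protein genes held these motifs, in the order given, in 57.3%, 52.0%, 33.3% and 17.3%. Except for the third motif, these shares were close to those of the member windows. Those motifs thus did not set the members apart from mitochondrial ribosomal protein genes. A match of this kind describes the letters of the window and nothing about binding.

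The values were log2 signals normalized by robust multi-array averaging (RMA), from 2.68 to 14.4 over the table, with array medians of 6.78 to 6.83. Most members were at the bright end. Each gene was represented by its brightest probeset, and 35 of 50 representatives averaged over 12 (23 of them over 13), 12 lay between 6 and 12, and 3 were under 6. The dim ones were the probesets of Rps16 (mean 3.56), Rpl3l (4.17), a paralog of heart and skeletal muscle, and Rpl39l (4.91), a paralog best known from male germ cells. A probeset's brightness also depends on its probes, so these levels do not order the genes. As a check of the tissue label, all 10 listed BNST neuropeptide genes gave mean signals of 9.18 (Pnoc) or more, which does not set this nucleus apart from its neighbours. The mean of 7 markers of striatal medium spiny neurons, a neighbouring cell type, varied widely between mice, as a deviation between -1.02 and 1.15, and at no time were the CIE mice all above or all below the Ctrl mice. The part of this variation in the members' values was not tested. Of the 106 member probesets, 43 carry a suffix (_x_at or _s_at) that marks probes shared with other transcripts. Ribosomal protein genes have many processed pseudogenes, so the values of these probesets are uncertain as to the transcript. Another 110 probesets list a ribosomal protein name among several symbols and were not counted.

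Members varied less between mice of a group than other genes did. The median SD between mice was 0.047 on the log2 scale for the 50 member genes (range 0.020 to 0.21), against 0.12 for all genes. Part of that gap went with brightness. The 35 bright members had a median SD of 0.041, against 0.062 for the 574 other genes with a mean above 12, while the 15 dimmer members had 0.099. The steadiest were Rps29 (SD 0.020, mean 14.1), Rpl38 (0.026) and Rpl13a (0.027), all among the brightest. The most variable were Rpl27a (0.21), Rpl39l (0.21), Rpl37 (0.15), Rpl3l (0.14) and Rps4l (0.13). Whether signals this near the top of the scale understate differences was not tested.

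**Figure D1:**
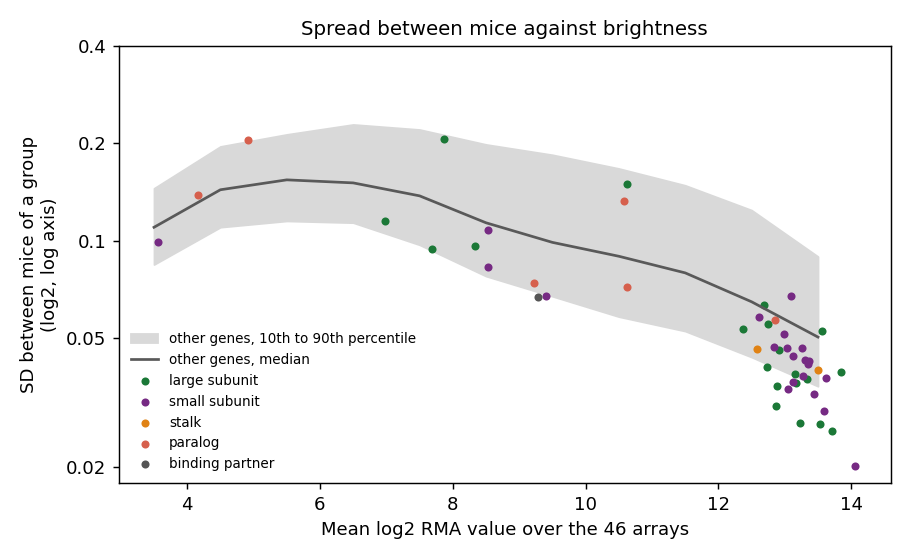
SD between mice of a group (log2, log axis) against mean log2 RMA value over 46 arrays for the 50 member genes (points, coloured by role) and all other genes (line, median; band, 10th to 90th percentile). Most members lie at a mean above 12 and on or below the line, and the members under 12 lie within or near the band.

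Ethanol exposure was followed by no called change of any member at any time. Differences were tested with limma over all 45037 probesets, and a probeset was called at a Benjamini-Hochberg adjusted p of 0.01 or less. CIE minus Ctrl gave 0 of 106 member probesets at 0 h, where 2.4% of all probesets were called. It gave 0 at 8 h (0.557% of all probesets called), 0 at 72 h (0.433%) and 0 at 7 d (0.0%). The F test over the 4 times together called 0 members and 2.84% of all probesets, and the test of whether the CIE effect changed with time called 0 members and 1.04%. At an unadjusted p under 0.05, 12 members passed at 0 h (11.3%, background 16.5%), 7 at 8 h (6.6%, background 10.5%), 17 at 72 h (16.0%, background 12.6%) and 2 at 7 d (1.89%, background 4.94%). At 0 h, 8 h and 7 d the share of members was below that of all probesets, and at 72 h it was above. Counted by gene at 72 h, 10 of 50 members passed, against 3101 of 18193 genes. Of the 574 other genes with a mean above 12, 150 passed, a larger share than that of the members. The 12 members of 0 h were 8 higher and 4 lower in CIE mice (7.55% and 3.77%, background 7.22% and 9.27%). At an adjusted p of 0.05, 3 members passed at 0 h (2.83%, background 4.92%), 0 at 8 h (background 1.26%), 1 at 72 h (0.943%, background 1.71%) and 0 at 7 d.

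The intervals say how large a change of the normalized signal could have been missed. Whether a larger change of RNA is understated near the top of the scale was not tested. The 95% interval of CIE minus Ctrl had a median half-width of 0.067 for member genes at 0 h, 8 h and 72 h and of 0.075 at 7 d, against 0.14 and 0.16 for all genes. It lay wholly within ±0.1, on the log2 scale, for 48.0% of member genes at 0 h, 44.0% at 8 h, 42.0% at 72 h and 46.0% at 7 d. The same held for 2.92% to 3.58% of all genes and for 23.3% to 32.2% of the other genes with a mean above 12. Within ±0.2 lay 82.0% to 88.0% of the members, 42.1% to 47.6% of all genes and 78.6% to 89.7% of the other genes with a mean above 12. In bulk tissue, a change of RNA per cell and a change in the number of cells cannot be told apart.

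The members shifted little as a group at any time. The median CIE minus Ctrl difference of the 50 genes was 0.016 at 0 h (32 above 0, 18 below), -0.010 at 8 h (22 above, 28 below), -0.028 at 72 h (12 above, 38 below) and 0.0086 at 7 d (31 above, 19 below). The medians of all genes were 0.00090, -0.0082, -0.0036 and 0.014. With 1 array left out, the member median ran from 0.0065 to 0.023 at 0 h, -0.016 to -0.0023 at 8 h, -0.033 to -0.014 at 72 h and -0.0024 to 0.025 at 7 d. It kept its sign in each of these fits except at 7 d, where it was -0.0024 without CIE replicate 27. Leaving out an array of another time cannot change the median, so only the fits without a mouse of the time compared bear on its sign. The small subunit followed the same order, with medians of 0.021, -0.012, -0.032 and 0.011, and 19 of its 21 genes were below 0 at 72 h. The large subunit had medians of 0.012, -0.0049, -0.021 and 0.014. Members are not independent, since they were measured in the same mice, and no test was made of the medians.

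**Figure D2:**
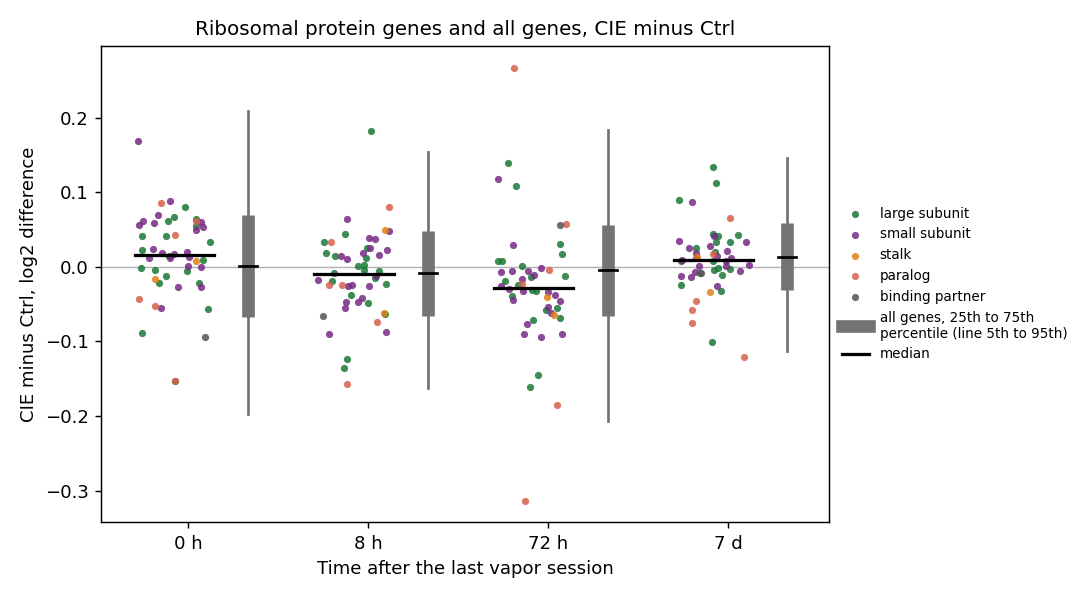
CIE minus Ctrl log2 difference of the 50 member genes (points, coloured by role; horizontal line, median) at each time after the last session, beside all 18193 genes (grey bar, 25th to 75th percentile; grey line, 5th to 95th). The member points lie mostly within the grey line at each time, and the member median moves from 0.016 at 0 h through -0.028 at 72 h to 0.0086 at 7 d.

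The mean of the 50 genes in each mouse, as a deviation from the mean of all arrays, overlapped between groups at every time. At 0 h it ran from -0.041 over a median of 0.0031 to 0.022 in CIE mice and from -0.042 over -0.023 to 0.018 in Ctrl mice. At 8 h it ran from 0.0032 over 0.0046 to 0.021 in CIE mice and from -0.0069 over 0.024 to 0.051 in Ctrl mice. At 72 h it ran from -0.020 over 0.0030 to 0.027 in CIE mice and from -0.011 over 0.027 to 0.081 in Ctrl mice. At 0 h 1 CIE mouse lay above every Ctrl mouse, and at 72 h 1 CIE mouse lay below every Ctrl mouse. At 7 d the 4 CIE mice were at 0.020, -0.011, -0.047 and -0.035, and the Ctrl mice ran from -0.063 over -0.027 to 0.025.

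**Figure D3:**
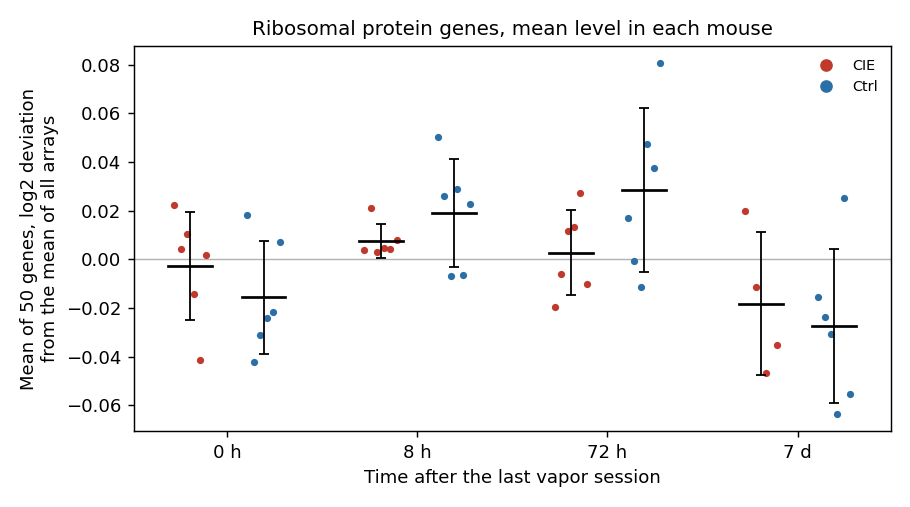
Mean of the 50 member genes in each mouse (points; log2 deviation from the mean of all arrays) for CIE (red) and Ctrl (blue) mice at each time; bars show mean and SD. The groups overlap at all 4 times, and the highest mouse is a Ctrl mouse at 72 h, at 0.081.

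At 0 h the members with the smallest p were Rps27, Rpl7l1, Rpl12 and Rpsa. Rps27, a zinc-binding protein of the small subunit, ran from 8.58 over a median of 8.64 to 8.72 in CIE mice and from 8.34 over 8.49 to 8.61 in Ctrl mice. The upper Ctrl mice overlapped the lower CIE mice. The difference was 0.17 ± 0.050 (SE), with an adjusted p of 0.0376 (limma), short of the threshold of 0.01. With the first residual component of the arrays in the model the adjusted p was 0.00539. That component was taken from the residuals of the same fit, so it could change the spread but not the difference of 0.17. Rps27 has 1 probeset.

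Rpl7l1, a nucleolar paralog of Rpl7, ran from 9.06 over 9.15 to 9.18 in CIE mice and from 9.10 over 9.31 to 9.38 in Ctrl mice at 0 h. Of the Ctrl mice, 1 lay at 9.10 and the rest above every CIE mouse. The difference was -0.15 ± 0.046, with an adjusted p of 0.0410, and without that Ctrl mouse (replicate 48) it was 0.00398. Its other probesets gave -0.034 and 0.099, so the difference was seen at 1 of 3 probesets.

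The lone probeset of Rpl12, which codes for a protein at the base of the stalk, ran from 7.97 over 8.04 to 8.30 in CIE mice and from 8.18 over 8.23 to 8.25 in Ctrl mice at 0 h. Here 1 CIE mouse, replicate 19, lay above all Ctrl mice and the rest below them. The difference was -0.15 ± 0.057, with an adjusted p of 0.122. Rpsa, the laminin receptor protein of the small subunit, ran from 12.96 over 13.06 to 13.14 in CIE mice and from 12.93 over 12.95 to 13.02 in Ctrl mice, a difference of 0.088 ± 0.035 (adjusted p = 0.162).

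Rps9, a small-subunit protein near the decoding site, had the widest disagreement between its own probesets. The dim probeset 1426958_at ran from 5.81 over 6.11 to 6.26 in CIE mice and from 6.25 over 6.33 to 6.63 in Ctrl mice at 0 h, a difference of -0.28 ± 0.083 (adjusted p = 0.0372). The brightest, 1433689_s_at, gave 0.00050 ± 0.043 and the third gave 0.11 ± 0.10. The gap of 0.39 between probesets of 1 gene was thus larger than any CIE minus Ctrl difference of a representative probeset at any time. The widest gaps of Rps6 (0.29 at 0 h), Rpl7l1 (0.25 at 0 h) and Rps18 (0.22 at 8 h) followed. Over the 24 genes with more than 1 probeset, the deviations of probesets of a gene over the 46 arrays had a median correlation of 0.194, and 6 genes had a median below 0. At the other end, the 3 probesets of Rps27l had a median correlation of 0.792.

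At 8 h the smallest p values belonged to Rps19, Rpl12, Rpl14 and Rpl19, all lower in CIE mice. Rps19, the protein most often mutated in human Diamond-Blackfan anaemia, ran from 12.77 over 12.79 to 12.85 in CIE mice and from 12.85 over 12.89 to 12.91 in Ctrl mice, a difference of -0.087 ± 0.033 (adjusted p = 0.256). The groups touched at 1 mouse each. Rpl12 was at -0.14 ± 0.057, Rpl14 at -0.12 ± 0.056 and Rpl19 at -0.064 ± 0.029, with adjusted p of 0.343, 0.402 and 0.421. Of the 7 members at an unadjusted p under 0.05, 0 were higher and 7 lower, against 4.39% and 6.14% of all probesets.

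At 72 h more members stood apart than at other times, and the share of all probesets without overlap was also highest then. Of the 17 at an unadjusted p under 0.05, 15 were lower in CIE mice (14.2% of members, against 5.98% of all probesets) and 2 were higher (1.89% against 6.6%). The 17 probesets stood for 13 genes and the 15 lower ones for 11, so some genes were counted more than once. CIE and Ctrl mice did not overlap for 5 members, or 4.72%, against 2.9% of all probesets, and for 0 members at the other times (2.5%, 1.1% and 1.12% of all probesets). Those 5 were probesets of Rps27l, Rpl22, Rps18 and Rps9, lower in CIE mice, and of Rps4l, higher.

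Rps27l is a paralog of Rps27 and a known target of p53. At 72 h its brightest probeset ran from 10.48 over 10.52 to 10.66 in CIE mice and from 10.66 over 10.72 to 10.83 in Ctrl mice. The highest CIE mouse lay just under the lowest Ctrl mouse. The difference was -0.19 ± 0.045 (95% interval -0.28 to -0.095), with an adjusted p of 0.0214, and the other 2 probesets gave -0.16 ± 0.049 and -0.17 ± 0.046. It was -0.053 at 0 h, -0.024 at 8 h and -0.045 at 7 d. Rps27l was thus not called in the main fit, at the threshold of 0.01. It was called with array weights (adjusted p = 0.00121) and with the first residual component in the model (0.0037), and in no other setting at that threshold. Of the 46 fits with 1 array left out, only that without CIE 8 h replicate 21 called it (0.00985). That mouse is not part of the 72 h comparison, so leaving it out could change the spread but not the difference.

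Rpl22, a large-subunit protein whose paralog is Rpl22l1, ran from 12.56 over 12.61 to 12.66 in CIE mice and from 12.66 over 12.77 to 12.81 in Ctrl mice at 72 h, a difference of -0.15 ± 0.041 (adjusted p = 0.0503, and 0.0068 with array weights). A separate probeset gave -0.15 ± 0.057 and the third -0.026 ± 0.052. Rpl22l1 was at 0.057. Rps18, a protein of the head of the small subunit, ran from 12.57 over 12.58 to 12.60 in CIE mice and from 12.61 over 12.66 to 12.79 in Ctrl mice, a difference of -0.094 ± 0.038 (adjusted p = 0.249). The brightest Rps9 probeset was at -0.090 ± 0.043 (adjusted p = 0.361).

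Rps4l was the exception in direction. It ran from 10.70 over 10.79 to 10.88 in CIE mice and from 10.37 over 10.51 to 10.67 in Ctrl mice at 72 h, a difference of 0.27 ± 0.076 with an adjusted p of 0.0546, and 0.00586 with array weights. The coding gene of its family, Rps4x, was at -0.0017 in the brightest probeset. The difference farthest below 0 was that of the dim Rpl39l, which ran from 4.65 over 4.77 to 4.93 in CIE mice and from 4.84 over 5.03 to 5.43 in Ctrl mice. These overlapped, and the difference was -0.31 ± 0.11 (adjusted p = 0.171).

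**Figure D4:**
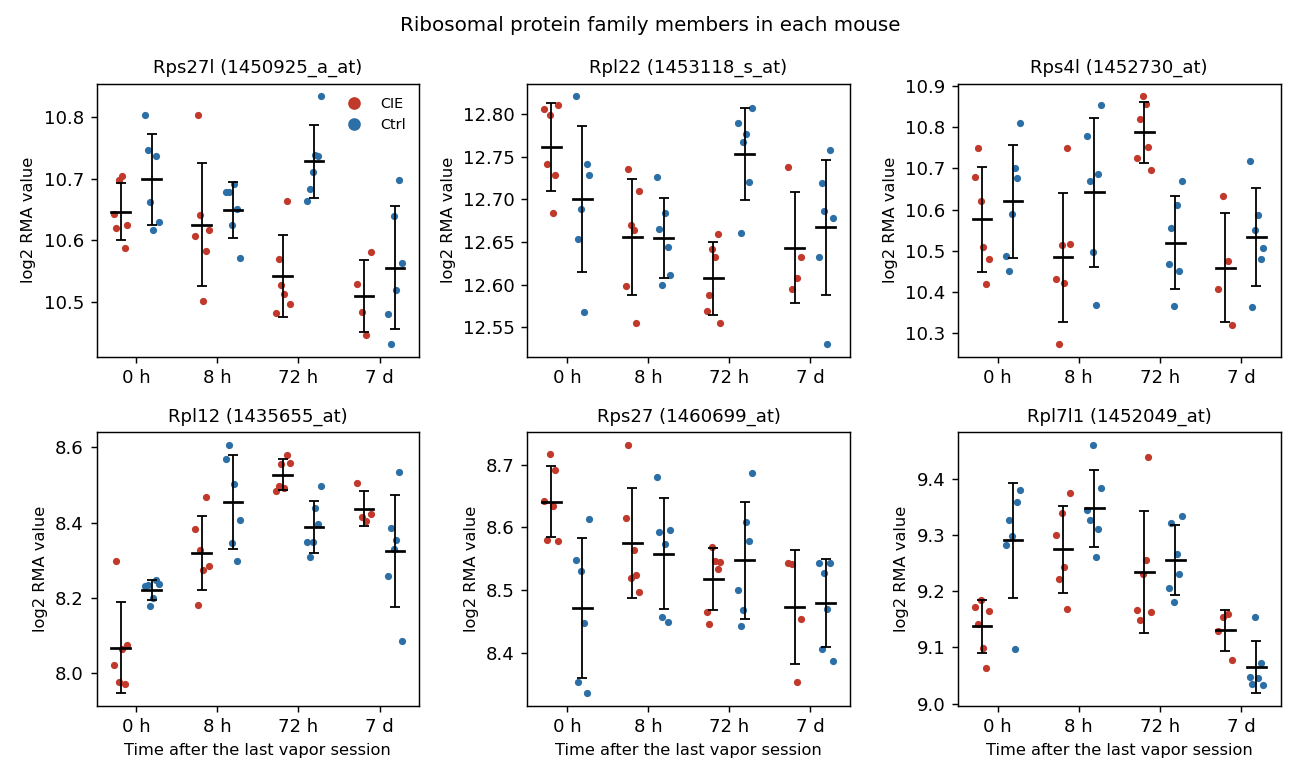
Log2 RMA values of 6 members in each mouse (points) for CIE (red) and Ctrl (blue) mice at each time; bars show mean and SD. At 72 h CIE and Ctrl mice do not overlap for Rps27l, Rpl22 and Rps4l, and Rpl12 rises in CIE mice between 0 h (mean 8.07) and 72 h (mean 8.53).

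The means of some cell type marker lists also separated the groups at 72 h. Those of neurons, GABA neurons, glutamate neurons, striatal medium spiny neurons and astrocytes overlapped. So did those of endothelium, mural cells, choroid plexus with ependyma, and blood. Of all 18193 genes, 40 were called lower and 85 higher at 72 h, and 281 lower and 282 higher at 0 h. The mean of the 11 measured microglial markers ran from -0.28 over -0.13 to 0.091 in CIE mice and from 0.23 over 0.31 to 0.36 in Ctrl mice, with 2 of 11 called lower (C1qb, C1qc). The 9 oligodendrocyte markers ran from -0.17 to -0.029 in CIE mice and from 0.093 to 0.17 in Ctrl mice (1 called lower, Opalin). The 6 markers of oligodendrocyte precursors ran from -0.086 to 0.0095 in CIE mice and from 0.13 to 0.25 in Ctrl mice (1 called lower, Gpr17). The 10 BNST peptides lay higher, from -0.013 to 0.19 in CIE mice and from -0.36 to -0.039 in Ctrl mice (1 called, Pnoc). At 0 h the mean of the 6 mural cell markers was lower in every CIE mouse than in any Ctrl mouse, with a difference of -0.30 and 2 called lower (Vtn and Kcnj8). The mean of the 11 microglial markers ran from -0.40 to 0.034 in CIE mice and from -0.035 to 0.39 in Ctrl mice at 0 h, a difference of -0.35, with 10 of 11 below 0 and 1 called lower (Fcrls, -1.30). The part of these shifts in the members' differences was not tested.

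At 7 d no probeset of the array was called, and 503 (1.12%) did not overlap. The smallest p among members belonged to Rpl14, Rps6, Rpl12 and Rpl38. Rpl14, a large-subunit protein, was at 7.64, 7.65, 7.66 and 7.57 in CIE mice and ran from 7.39 over 7.52 to 7.57 in Ctrl mice, a difference of 0.13 ± 0.062. Rps6, the S6 kinase substrate, was at 9.54, 9.43, 9.51 and 9.28 in CIE mice and ran from 9.26 over 9.35 to 9.43 in Ctrl mice, a difference of 0.087 ± 0.048. Rpl12 was at 0.11 ± 0.064 and Rpl38 at 0.043 ± 0.028. The adjusted p was 0.98 for Rpl14 and higher for the other genes.

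Changes over time within a treatment were called for a few members. In CIE mice the F test over 0 h, 8 h, 72 h and 7 d called 4 of 106 members (3.77%, against 7.76% of all probesets), those of Rpl12, Rps3, Rpl41 and Rps4l. In Ctrl mice it called 4 (3.77%, against 10.9%), those of Rpl7l1, Rpl14, Rps6 and Rpl41. Between single times, CIE mice gave 1 called member at 8 h against 0 h (3.24% of all probesets called), 3 at 72 h (6.07%) and 3 at 7 d (2.49%). Ctrl mice gave 0 at 8 h (0.713%), 0 at 72 h (0.173%) and 1 at 7 d (2.23%). The change of the CIE effect relative to 0 h gave 0 members at 8 h (0.0799%), 72 h (0.988%) and 7 d (0.437%). Per the study's methods, treatments and times were randomized over the processing of the samples and hybridization groups were adjusted for. The batch of each array is not given in the sources used here, and its part in these courses was not tested.

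Rpl12 changed the most. In CIE mice it had medians of 8.04 at 0 h, 8.31 at 8 h, 8.53 at 72 h and 8.42 at 7 d, and the lowest mouse at 72 h (8.48) lay above the highest at 0 h (8.30). Relative to 0 h it was 0.25 ± 0.057 higher at 8 h, 0.46 ± 0.057 at 72 h and 0.37 ± 0.064 at 7 d (adjusted p = 0.00335, 1.27e-07 and 0.000108, F test 5.25e-07). It stayed called with any 1 array left out. In Ctrl mice the medians were 8.23, 8.45, 8.37 and 8.34, with an F test at 0.0123. CIE minus Ctrl was -0.15, -0.14, 0.14 and 0.11 at the 4 times, and the test of whether this difference changed with time gave an adjusted p of 0.0276 for Rpl12, the lowest of any member. It was called without CIE 0 h replicate 19 and without Ctrl 7 d replicate 70.

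Rps3, a small-subunit protein at the messenger RNA entry channel, fell over the CIE course at 1 probeset, 1455600_at. Its CIE medians were 9.52 at 0 h, 9.31 at 8 h, 9.20 at 72 h and 9.08 at 7 d, and the differences from 0 h were -0.19 ± 0.076, -0.32 ± 0.076 and -0.42 ± 0.085 (adjusted p = 0.13, 0.00327 and 0.00105, F test 0.00125). The Ctrl medians were 9.29, 9.24, 9.17 and 9.02 (adjusted p = 0.121). Its brightest probeset did not pass in CIE mice (adjusted p = 0.649). Which transcript 1455600_at reads is thus uncertain. Rpl22 was also called between 72 h and 0 h in CIE mice, at -0.15 ± 0.041 (adjusted p = 0.0084), with medians of 12.77 at 0 h and 12.61 at 72 h, although its F test did not pass (0.0313).

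Rpl7l1 and Rpl14 changed in Ctrl mice and stayed called with any 1 array left out. Ctrl medians of Rpl7l1 were 9.31, 9.34, 9.25 and 9.05, and it fell by 0.23 ± 0.046 between 0 h and 7 d (F test, adjusted p = 0.000124). Ctrl medians of Rpl14 were 7.73, 7.87, 7.67 and 7.52 (adjusted p = 0.000172). The CIE courses of these genes gave adjusted p of 0.0587 and 0.0406.

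The other calls were less stable. Rps6 was highest at 72 h in Ctrl mice (9.49 to 9.58, against 9.15 to 9.47 at 0 h; adjusted p = 0.00517) and lost the call without any of 4 Ctrl mice of 72 h (replicates 16, 44, 52 and 68). The probeset 1454639_x_at of Rpl41, the smallest ribosomal protein, was highest at 7 d in both courses (adjusted p = 0.00799 in CIE and 0.00974 in Ctrl mice), while the brightest Rpl41 probeset did not pass in either (0.653 and 0.336). It stayed called in 36 of 46 fits with 1 array left out for CIE and in 13 of 46 for Ctrl. Rps4l peaked at 72 h in CIE mice (adjusted p = 0.00802) and stayed called in 30 of 46.

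Relative to 0 h the median of the 50 member genes was 0.022 at 8 h, 0.038 at 72 h and -0.0061 at 7 d in Ctrl mice, against 0.032, 0.030 and -0.021 for all genes. In CIE mice it was -0.0086, -0.0098 and -0.013, against 0.024, 0.030 and -0.0015 for all genes, so at 8 h and 72 h the CIE medians of members and of all genes had opposite signs. Deviations of members from their group means went together to a degree. The median correlation between 2 member genes over the 46 arrays was 0.188 (1225 pairs), against 0.036 for all genes and 0.0135 for the other genes with a mean above 12. It was higher, at 0.274, for the 76 mitochondrial ribosomal protein genes. Among members it was 0.248 within the large subunit and 0.195 within the small subunit. Pairs share the arrays, and normalization, and no test was made.

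Other genes of ribosome production and translation gave calls at 0 h where the cytosolic ribosomal proteins gave none. The 76 mitochondrial ribosomal protein genes code for the separate ribosome of mitochondria. Of these, 11 were called lower and 0 higher in CIE mice (all genes, 281 lower and 282 higher of 18193). Their median was -0.098 and 63 of 76 were below 0, against a median of 0.016 and 18 of 50 below 0 for the cytosolic ones. Mrpl54 fell by 0.37 ± 0.067 (adjusted p = 0.000257), Mrps28 by 0.26 ± 0.051 (0.000698) and Mrpl21 by 0.19 ± 0.039 (0.00163), with no overlap between groups. The count was 3 without CIE mouse replicate 57 and 1 when only the CIE and Ctrl mice of 0 h were fitted, while the median stayed between -0.11 and -0.085 with any 1 array left out. At 8 h 1 of 76 was called, Mrpl41, higher by 0.22 ± 0.049, and at 72 h and 7 d 0 were.

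Of 64 ribosome biogenesis genes, 4 were called lower at 0 h (all genes, 281 of 18193), with a list median of -0.061 and 47 below 0. These were Bysl (-0.28 ± 0.040, adjusted p = 9.89e-06), which acts in maturation of the small subunit, Heatr1 (-0.25 ± 0.053) and Utp11 (-0.18 ± 0.037), both of the small-subunit processome, and Wdr74 (-0.22 ± 0.052), of the large-subunit pathway. By 7 d the list's median was 0.038, with 53 of 64 above 0 and 0 called. All genes had a median of 0.014 at 7 d, with 10665 of 18193 above 0. The 4 CIE mice all lay above every Ctrl mouse in the list's mean at 7 d, while every other list overlapped. No test was made of this list's course. The count at 0 h was 0 with only the 2 groups of 0 h in the fit and 8 without CIE mouse replicate 19.

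Of 33 initiation factor genes, 3 were called higher at 0 h (all genes, 282 of 18193), with a list median of 0.0055. These were Eif4b, a cofactor of the helicase and an S6 kinase substrate (0.17 ± 0.034), Eif3e (0.17 ± 0.038) and Eif5 (0.14 ± 0.034). This count was 1 without CIE mouse replicate 26 or 57, and 0 with only the 2 groups of 0 h. Elongation factors (5 genes, median -0.044) and 6 other transcripts that end up in or near the ribosome or carry a TOP motif, such as Fau and Tpt1 (median -0.019), gave 0 calls. Of 25 genes of mTOR and S6 kinase signalling, 2 were called, both higher at 0 h (all genes, 282 higher of 18193). The list median was -0.0060, with 12 above and 13 below 0. The list's mean in each mouse, which includes the 2 called genes, did not overlap between groups at 0 h. It ran from 0.043 to 0.082 in CIE mice and from -0.029 to 0.039 in Ctrl mice. Both called genes code for inhibitors of mTOR complex signalling. Inhibitors on the list that were not called included those at 0.22 (Sesn2), 0.18 (Sesn3), -0.21 (Deptor), -0.070 (Tsc2), -0.019 (Akt1s1) and -0.0060 (Tsc1). Ddit4 was 0.91 ± 0.11 higher (adjusted p = 1.55e-07) and Sesn1 0.29 ± 0.042 higher (7.05e-06), and Ddit4 was still 0.77 ± 0.11 higher at 8 h (1.33e-05). At 72 h Mycn, a transcription factor that drives ribosome production in growing cells, was 0.62 ± 0.12 higher (adjusted p = 0.00572). Of all genes, 85 of 18193 were called higher at 72 h. Mycn went the other way at 0 h, at -0.46 (adjusted p = 0.0180, limma, not called), and was at -0.016 at 8 h.

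**Figure D5:**
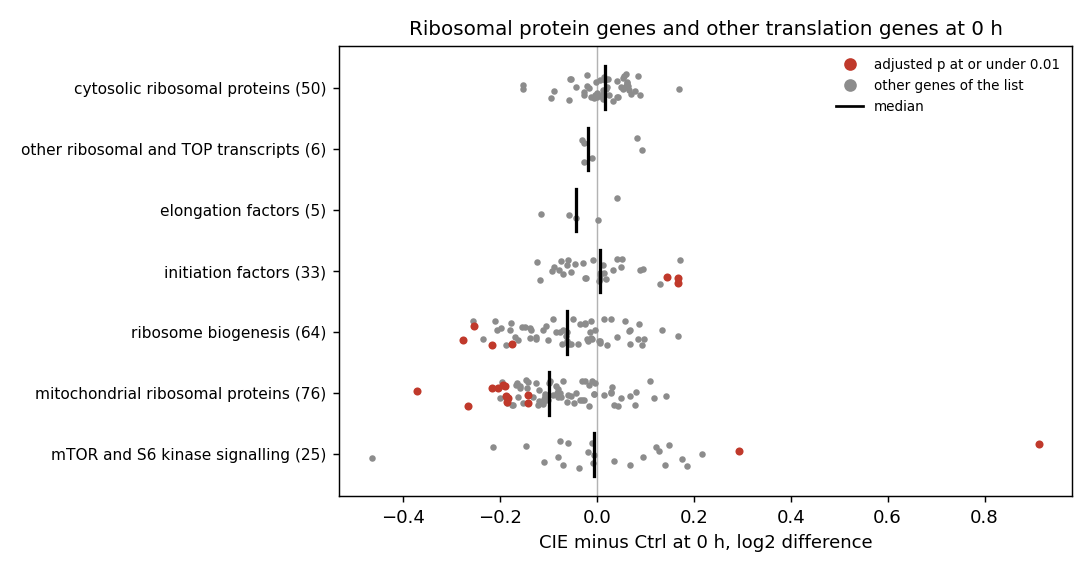
CIE minus Ctrl log2 difference at 0 h for the genes of 7 lists (points; red, adjusted p at or under 0.01; vertical line, median; number of genes in brackets). The 50 cytosolic ribosomal protein genes cluster near 0 with 0 red points, the mitochondrial ribosomal proteins lie to the left of 0 with 11, and the far right point is Ddit4 at 0.91.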

How the data were processed

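Per the study's methods, the authors made the deposited log2 expression values from Affymetrix scans by RMA within each hybridization batch, quantile normalization over all arrays and removal of batch differences with ComBat. Versions, the batch of each array and the ComBat covariates are not given in the sources used here, and batches could not be fitted. The deposited log2 table held 46 arrays and no missing value. Of 45037 probesets, 34945 had 1 gene symbol in the platform annotation. limma 3.58.1 (R 4.3.3) fitted the 8 group means over 46 arrays, with Benjamini-Hochberg adjustment over 45037 probesets and the study's threshold of 0.01. The number of arrays limits the precision. The labels call mice biological replicates. The script was checked on simulated data. Named genes were members called in any comparison, the 4 smallest p at each time, a fixed list of 22 genes (15 measured), the 4 genes whose probesets disagreed most, and the 5 most and 3 least variable. The members and lists were chosen with earlier results of these data known. Promoter sequences are from RefSeq.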

Additional observations from a re-analysis of the deposited data

Results flagged for a closer look

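Of 184 groups checked, over 22 probesets and the member mean, 10 held 1 mouse whose gap to the nearest other mouse was large for the group's range. Chance alone flags about 1 group in 20. The member mean of CIE replicate 21 at 8 h was 0.0211, with the next mouse at 0.0082. The same mouse had Rpl41 (1454639_x_at) at 7.54, next 7.70. CIE replicate 15 at 8 h had Rpsa at 12.94, next 13.04, and Rps3 (1455600_at) at 9.52, next 9.33. Ctrl replicate 48 at 0 h had Rps6 at 9.15, next 9.36, and Rpl7l1 at 9.10, next 9.28. Rpl7l1 was also set apart in CIE replicate 63 at 72 h, at 9.44 with the next at 9.26, and in Ctrl replicate 46 at 7 d, at 9.16 with the next at 9.07. Rpl12 was at 8.30 in CIE replicate 19 at 0 h, next 8.07. Rps19bp1 was at 9.43 in Ctrl replicate 56 at 0 h, next 9.29.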

How the results depend on the processing

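No paired analysis was possible because the groups share no replicate numbers. Member medians moved by less than 0.0245, the SD of the member mean between mice, in every setting tried. That SD is larger than the medians themselves at 0 h, 8 h and 7 d, so staying within it does not show that a median kept its size or sign. With 1 array left out the medians ran from 0.0065 to 0.023 at 0 h, -0.016 to -0.0023 at 8 h, -0.033 to -0.014 at 72 h and -0.0024 to 0.025 at 7 d. Member counts at the threshold then ranged from 0 to 1 at 0 h (1 without Ctrl 0 h replicate 48) and at 72 h (1 without CIE 8 h replicate 21), were 0 at 8 h and 7 d in each fit, and ranged from 2 to 4 for the CIE course, 2 to 8 for the Ctrl course (2 without Ctrl 72 h replicate 44, 52 or 68, 8 without Ctrl 7 d replicate 70) and 0 to 1 for the change of effect. The CIE course fell to 2 without any one of 8 CIE mice. Array weights called 4 members at 72 h (2 probesets of Rps27l, Rps4l and Rpl22), 11 in the CIE course and 1 for the change of effect. The first residual component called 1 at 0 h (Rps27), 2 at 72 h (Rps27l) and 9 in the Ctrl course. It was taken from the residuals of the same fit, so it could change the spread but not the differences. Fitting only the groups compared left 2 members in each course, and probesets above a mean of 6 gave 7 in the Ctrl course. An adjusted p of 0.05 gave 3 members at 0 h, 1 at 72 h, 14 in the Ctrl course, 7 in the CIE course and 1 for the change of effect.

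Settings for the other lists at 0 h were chosen after seeing the data. With 1 array left out, mitochondrial ribosomal protein calls ran from 3 to 13 (median -0.11 to -0.085), ribosome biogenesis calls from 3 to 8 (median -0.070 to -0.041) and initiation factor calls from 1 to 3. With only the groups compared these counts were 1, 0 and 0, and at an adjusted p of 0.05 they were 22, 12 and 5. Aligned array medians gave 7 mitochondrial ribosomal protein calls, and the first residual component and the filter above a mean of 6 gave 7 ribosome biogenesis calls each. Aligning array medians moved the median of all probesets at 0 h to 0.0082, against -0.0030 as deposited. The causes of these differences were not tested. Probes shared with other transcripts limit 43 of the 106 member probesets.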
